A study of Homo sapiens with 12 samples.

Results

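Azurophil granule proteins are described here through 10 genes chosen by name, *MPO*, *ELANE*, *PRTN3*, *CTSG*, *AZU1*, *BPI*, *LYZ*, *RNASE2*, *RNASE3* and *SRGN*, of the 58288 genes in the count table. All 10 were found in the table. Azurophil (primary) granules are the first granules a developing neutrophil makes, and their cargo is transcribed mainly at the promyelocyte stage and shut down as the cell matures. They are specialised lysosomes that fuse with the phagosome and release an oxidant-forming peroxidase, serine proteases and proteins that attack bacterial membranes. Serglycin, the proteoglycan encoded by *SRGN*, packs the basic cargo into the granule through its negatively charged sugar chains, and it is also made by many other blood cells.

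RNA was sequenced from HL-60/S4, an established human promyelocytic leukemia line that matures into a granulocytic form with all-trans retinoic acid (ATRA). The 12 libraries, each from its own flask of this single line at passage 8, formed 4 groups of 3: promyelocytes (no ATRA) given water as vehicle, promyelocytes given 16 ng/mL TNF-α, granulocytes (1 µM ATRA for 4 days) given vehicle, and granulocytes given the same dose of TNF-α. TNF-α or vehicle was present for 2 h, and all 4 groups were kept in calcium-supplemented medium. Each cell type had its own experiment, so cell type and experiment cannot be told apart in any comparison of levels or of TNF-α responses between them.

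Library totals were 22829189 to 31895061 read pairs, and 3 counts, taken as the floor of detection, stood between 0.0941 and 0.131 CPM before TMM scaling. Of the 11 granulocyte markers tested, 11 were higher in vehicle granulocytes than in vehicle promyelocytes, against 35.7% of all genes tested (edgeR, adjusted p under 0.05). The summed level of the list of 12 was 88.5 to 89.4 CPM in promyelocytes and 3226 to 3472 CPM in granulocytes. Of 14 genes of the later, specific and gelatinase granules, *LTF*, *LCN2*, *MMP8* and 5 others had at most 3 counts in every vehicle granulocyte library. The summed level of the list was 115 to 123 CPM in vehicle promyelocytes and 2081 to 2153 CPM in vehicle granulocytes, and nearly all of it was *CYBB*, a subunit gene of the NADPH oxidase, at 113 and 2106 CPM. Monocyte and macrophage markers, a list of 13, summed to 4.70 to 5.18 CPM in vehicle promyelocytes and 101 to 104 CPM in vehicle granulocytes. Only 2 of them were tested, and these 2 were higher in vehicle granulocytes, against 35.7% of all genes tested, with a median log2 fold change of 5.14. *MRC1* and *CD163* were at or under 3 counts in both groups, as were 8 of the 13 in all vehicle granulocyte libraries. Eosinophil markers summed to 38.2 to 44.3 and 129 to 139 CPM, and the eosinophil peroxidase gene *EPX* was at or under 3 counts in granulocytes. Of 7 eosinophil markers tested, 3 were higher and 4 lower in vehicle granulocytes, with a median log2 fold change of -3.22. Over all genes tested 35.7% were higher and 36.3% lower. Markers of other lineages summed to between 17.9 and 26.2 CPM in all 4 groups. In such bulk samples, fewer cells of a type and less RNA per cell cannot be told apart.

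Vehicle promyelocytes held azurophil granule transcripts at very unequal levels. Compared per length, as CPM (read counts scaled to the library size, with TMM factors over the 12 libraries) divided by kilobases of exon, *MPO* led with 1821 ± 91.8 CPM per kb (SD, n = 3 libraries) and ranked 18 among the 32683 genes with reads. *MPO* (chr17:58269856-58280935 in hg38, as all gene positions here, minus strand) encodes myeloperoxidase, which turns hydrogen peroxide and chloride into hypochlorous acid. *PRTN3* (chr19:840960-848175), encoding proteinase 3, followed with 1006 ± 81.1 CPM per kb, and *SRGN* (chr10:69088106-69104811) with 771 ± 47.1. Each of these levels lay apart from the next, with no overlap between libraries.

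*LYZ* (chr12:69348341-69354234), the gene of lysozyme, which cleaves bacterial cell walls, stood at 88.8 ± 7.35 CPM per kb, and *CTSG* (chr14:24573522-24576260, minus strand), the gene of the serine protease cathepsin G, at 45.4 ± 3.29. *RNASE2* (chr14:20955452-20956436) encodes eosinophil-derived neurotoxin, a secreted ribonuclease, and had 26.0 ± 1.60 CPM per kb, while *AZU1* (chr19:825097-832018), encoding azurocidin, an antimicrobial relative of the proteases that has lost enzyme activity, had 20.5 ± 1.90. Far below came *ELANE* (chr19:851014-856247), the gene of neutrophil elastase, at 1.74 ± 0.292, *BPI* (chr20:38260149-38337505), whose protein binds the lipopolysaccharide of Gram-negative bacteria, at 1.67 ± 0.0313, and *RNASE3* (chr14:20891399-20892348), the gene of eosinophil cationic protein, at 0.465 ± 0.153. *ELANE* and *BPI* did not differ beyond the spread of their libraries, and all other neighbours in this order were separated. The lengths are those of all annotated exon bases, 5626 for *BPI* and 1028 for *ELANE*. Close steps in the order therefore also depend on the annotation, and the transcripts in use were not tested.

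The low level of *ELANE* stood out within its own gene cluster. *AZU1*, *PRTN3* and *ELANE* lie side by side on the plus strand of chromosome 19 within 31151 bases, with 8942 bases between *AZU1* and *PRTN3* and 2839 between *PRTN3* and *ELANE*. Per length, *PRTN3* was 578-fold and *AZU1* 11.8-fold above *ELANE* in vehicle promyelocytes. The counts of *ELANE* were 58, 55 and 42 in the vehicle promyelocyte libraries, against 30893 to 38362 for *PRTN3*. None of the 10 members shared exon bases with another gene of its own strand.

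*RNASE2* and *RNASE3* are recent duplicates, 63104 bases apart on chromosome 14, and were far apart in level. *RNASE2* exceeded *RNASE3* 55.9-fold per length in vehicle promyelocytes and 37.3-fold in vehicle granulocytes. The sequences before their starts are shown because long parts of them are nearly the same. Capitals mark the longest identical run, of 86 bases (RefSeq, GRCh38.p14, plus strand, chr14:20955237-20955451 and chr14:20891135-20891384).
RNASE2: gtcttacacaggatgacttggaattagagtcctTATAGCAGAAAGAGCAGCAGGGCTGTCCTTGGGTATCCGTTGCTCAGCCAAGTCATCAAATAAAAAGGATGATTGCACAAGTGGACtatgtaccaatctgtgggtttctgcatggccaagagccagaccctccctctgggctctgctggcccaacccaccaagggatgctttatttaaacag
RNASE3: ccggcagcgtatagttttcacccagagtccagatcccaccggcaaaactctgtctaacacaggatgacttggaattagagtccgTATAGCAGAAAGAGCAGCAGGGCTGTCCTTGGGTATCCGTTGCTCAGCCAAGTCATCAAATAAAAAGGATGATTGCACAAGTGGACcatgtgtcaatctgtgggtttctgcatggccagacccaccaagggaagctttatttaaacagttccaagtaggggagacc
Over 181 aligned bases of these stretches, 174 (96.1%) were identical, with bases that face a gap left out. The *RNASE2* stretch, of 215 bases, holds a block shortly before its end that the *RNASE3* stretch lacks. *RNASE3* had 6 to 12 counts per vehicle promyelocyte library, and since only primary alignments were counted, reads fitting both copies could have been placed on either, so the split between the copies is uncertain. The counts per vehicle promyelocyte library were 542 to 587 for *RNASE2*.

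**Figure D1:**
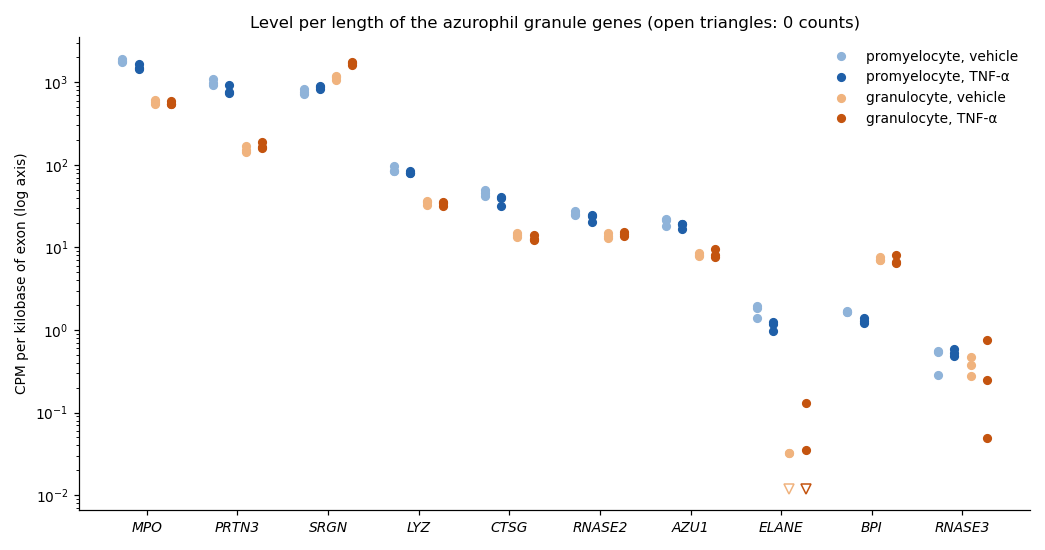
Level of each member per length, in CPM per kilobase of exon on a log axis, with a point for each of 12 libraries and colours for the 4 groups; open triangles stand for libraries with 0 counts. *MPO*, *PRTN3* and *SRGN* lead in vehicle promyelocytes with means between 771 and 1821 CPM per kb, *SRGN* and *BPI* are higher in granulocytes, and *ELANE* is near 0 there.

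Vehicle granulocytes held less of most azurophil granule transcripts and more *BPI* and *SRGN*. Of the 10 members, 7 were lower and 2 higher than in vehicle promyelocytes, in a comparison where 36.3% of all genes tested were lower and 35.7% higher (edgeR, adjusted p under 0.05). *PRTN3* fell from 1253, 1136 and 1069 CPM in the promyelocyte libraries to 165, 173 and 195 CPM in the granulocyte libraries, a log2 fold change of -2.70 (SE, the standard error, 0.0825, edgeR adjusted p = 1.18e-20). *MPO* fell from 6782, 6331 and 6155 CPM to 1933, 2007 and 2116 CPM, a log2 fold change of -1.67 (SE 0.0628, adjusted p = 1.08e-18). The groups lay far apart for both genes. *CTSG* fell by 1.69, *LYZ* by 1.34, *AZU1* by 1.32 and *RNASE2* by 0.90 on the log2 scale, with standard errors of 0.0627 to 0.0916.

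*ELANE* all but disappeared. It had 0, 1 and 1 counts in the vehicle granulocyte libraries, and measured against the floor of 3 counts per library it was at least 17-fold lower than in vehicle promyelocytes (edgeR adjusted p = 3.73e-10). *BPI* went the other way, from 9.21, 9.56 and 9.35 CPM to 39.5, 39.8 and 42.6 CPM, a log2 fold change of 2.12 (SE 0.0856, edgeR adjusted p = 5.18e-18). *SRGN* rose from 998, 884 and 938 CPM to 1453, 1395 and 1311 CPM, a log2 fold change of 0.56 (SE 0.0581, edgeR adjusted p = 2.05e-09). For *RNASE3* the log2 fold change was -0.32 (adjusted p = 0.626) and the libraries overlapped. In all, 7 members had every granulocyte library below every promyelocyte library and 2 had every one above, against 37.1% and 37.3% of all genes tested.

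With these shifts the order of the members changed. Per length, *SRGN* was the leading member in vehicle granulocytes, 1.98-fold above *MPO*, whereas *MPO* had stood 2.36-fold above *SRGN* in vehicle promyelocytes. *MPO* gave 73.0% of all read pairs on the 10 members in vehicle promyelocytes and 54.1% in vehicle granulocytes, and *SRGN* gave 10.7% and 37.2%. *PRTN3* stood behind *MPO*, the libraries of *CTSG* and *RNASE2* overlapped, and *BPI* moved above *ELANE*, to 7.23 ± 0.300 CPM per kb.

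**Figure D2:**
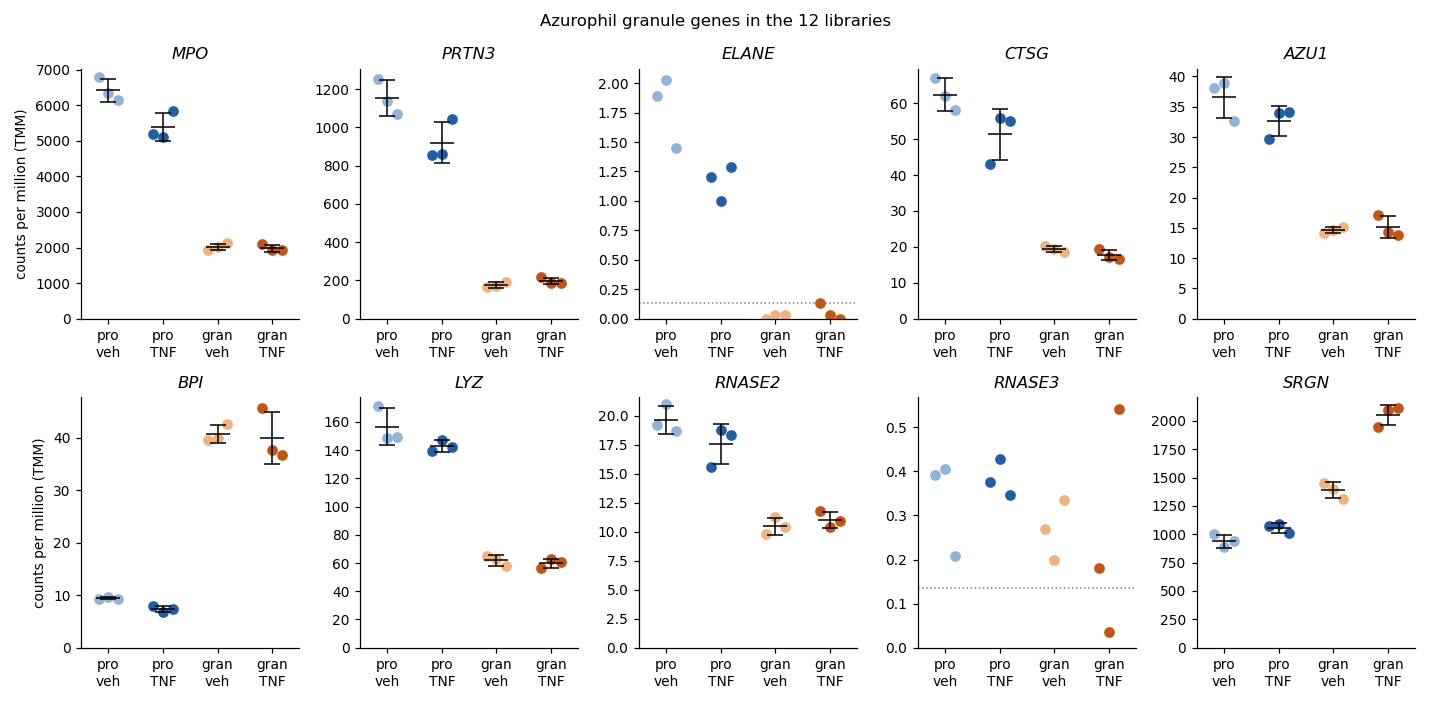
CPM after TMM scaling, on axes that start at 0, for each member in the 12 libraries (pro, promyelocytes; gran, granulocytes; veh, vehicle); bars give mean ± SD of 3 libraries, left out for *ELANE* and *RNASE3*, where a dotted line marks the highest floor of 3 counts. With TNF-α the *MPO* libraries of promyelocytes range from 5110 to 5826 CPM, all below the vehicle libraries, and the *SRGN* libraries of granulocytes range from 1947 to 2116 CPM, all above theirs.

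TNF-α treatment of promyelocytes was followed within 2 h by modest decreases of 3 cargo transcripts and a modest increase of *SRGN*. *PRTN3*, *MPO* and *CTSG* were lower and *SRGN* was higher, and the other 6 members did not pass the test (edgeR, adjusted p under 0.05). Among all genes tested 6.65% were lower and 8.15% higher. The log2 fold change was negative for 8 of the 10 members, with a median of -0.19 over the members and -0.01 over all genes tested.

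*PRTN3* stood at 1253, 1136 and 1069 CPM with vehicle and at 854, 861 and 1045 CPM with TNF-α. The log2 fold change was -0.30 (SE 0.0739, edgeR adjusted p = 0.00785), with every TNF-α library below every vehicle library and the highest of them close to the lowest vehicle library. *MPO* stood at 6782, 6331 and 6155 CPM with vehicle and at 5183, 5110 and 5826 CPM with TNF-α. Its log2 fold change was -0.23 (SE 0.0632, edgeR adjusted p = 0.0155), again without overlap. *CTSG* stood at 67.1, 62.0 and 58.1 CPM with vehicle and at 43.2, 56.0 and 55.0 CPM with TNF-α, and the first TNF-α library was the farthest from the rest. The log2 fold change was -0.25 (SE 0.0817, edgeR adjusted p = 0.0414). For *SRGN* the values were 998, 884 and 938 CPM with vehicle and 1069, 1088 and 1008 CPM with TNF-α, a log2 fold change of 0.19 (SE 0.0598, edgeR adjusted p = 0.0370). The groups of *SRGN* did not overlap, by a margin smaller than the spread within either group.

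Among the members that did not pass, *BPI* had 9.21, 9.56 and 9.35 CPM with vehicle and 7.86, 6.86 and 7.28 CPM with TNF-α (log2 fold change -0.33, edgeR adjusted p = 0.0516). *ELANE* had 58, 55 and 42 counts with vehicle and 32, 28 and 41 with TNF-α, and its log2 fold change of -0.59 had a standard error of 0.249 (edgeR adjusted p = 0.129). Neither gene had overlapping groups. *LYZ*, *AZU1* and *RNASE2* had log2 fold changes of -0.11 to -0.14 with adjusted p of 0.267 to 0.368, and *RNASE3*, with 6 to 12 counts per library, had 0.22 (adjusted p = 0.795). In all, 6 members lay wholly below their vehicle libraries and 1 wholly above, against 17.1% and 13.7% of all genes tested.

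The fold changes of promyelocytes moved with base composition. When all genes tested were split into 5 equal bins by exon GC content, the lowest bin had a median log2 fold change of 0.09 and the highest one of -0.11. *PRTN3* has 66.6% GC in its exons and *MPO* 58.8%, in the highest bin, whereas *SRGN* has 38.0%, in the lowest. After GC content and exon length trends were removed from each library, *MPO* (log2 fold change -0.19, edgeR adjusted p = 0.0242) and *CTSG* (-0.23, adjusted p = 0.0325) stayed past the threshold, *LYZ* passed it (-0.20, adjusted p = 0.0231), and *PRTN3* (-0.18, adjusted p = 0.0526) and *SRGN* (0.08, adjusted p = 0.422) did not. No member was called higher in that fit.

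Single libraries also decided calls. The *MPO* call was lost without vehicle replicate 1 (adjusted p = 0.0580), vehicle replicate 2 (0.0532) or TNF-α replicate 2 (0.0709), and the *PRTN3* call without TNF-α replicate 2 (0.0594). The *CTSG* call was lost without vehicle replicate 1 (adjusted p = 0.168), vehicle replicate 2 (0.105) or TNF-α replicate 1, the last of which brought its log2 fold change to -0.15 (0.198). The *SRGN* call was lost without vehicle replicate 2 (0.237), vehicle replicate 3 (0.0928), TNF-α replicate 1 (0.0697) or TNF-α replicate 2 (0.113). The directions of these 4 genes held in all 6 fits.

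**Figure D3:**
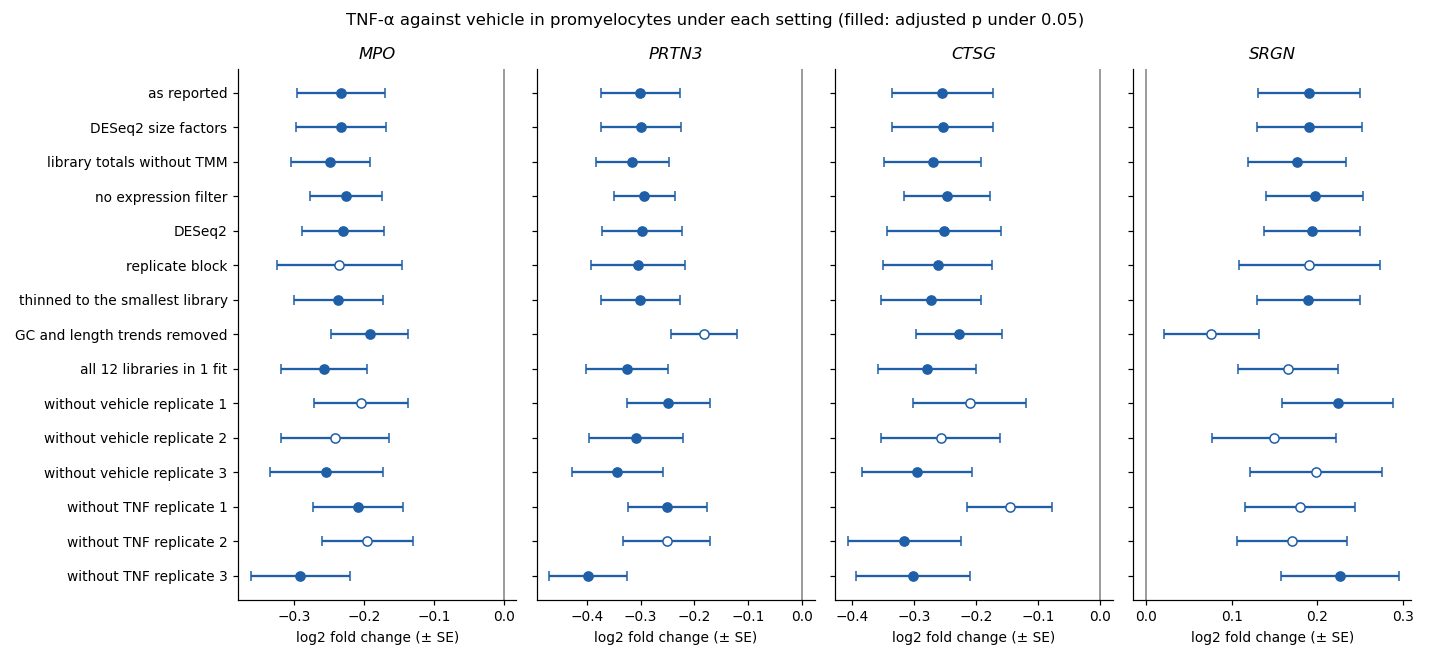
Log2 fold change of TNF-α against vehicle in promyelocytes (x axis, ± standard error) for *MPO*, *PRTN3*, *CTSG* and *SRGN* under each processing setting and with each library left out (rows); filled points have an adjusted p under 0.05. Every point keeps its side of 0, from -0.40 to -0.18 for *PRTN3* and from 0.08 to 0.23 for *SRGN*, while many points lose the call.

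The stretches before the starts of the protease-family genes that RefSeq's promoter table holds are shown because these neighbours and relatives were lower, or leaned lower, with TNF-α (GRCh38.p14, CTSG chr14:24576261-24576500 on the minus strand, AZU1 chr19:827587-827835 and PRTN3 chr19:840749-840959 on the plus strand). Each stretch stops where the exons of the counted gene begin. For *AZU1* RefSeq's start lies 2740 bases into the gene as counted, and the stretch falls between the first 2 of its exon blocks, upstream of the one at chr19:827836-827904. Capitals mark matches on either strand to GAGGAA, a core of sites for PU.1, and to TTNNGNAA, a loose form of sites for C/EBP factors, both of which are known regulators of granule genes.
CTSG: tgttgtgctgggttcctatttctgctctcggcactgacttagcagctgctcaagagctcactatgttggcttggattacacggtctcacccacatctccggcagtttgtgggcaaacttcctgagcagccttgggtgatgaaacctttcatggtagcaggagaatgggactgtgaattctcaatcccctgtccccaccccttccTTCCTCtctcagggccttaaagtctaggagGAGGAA
AZU1: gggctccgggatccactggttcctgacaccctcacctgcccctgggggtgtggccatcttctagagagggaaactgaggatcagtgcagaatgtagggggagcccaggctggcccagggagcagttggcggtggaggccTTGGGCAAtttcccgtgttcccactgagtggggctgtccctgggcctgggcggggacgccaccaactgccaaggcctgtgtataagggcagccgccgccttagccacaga
PRTN3: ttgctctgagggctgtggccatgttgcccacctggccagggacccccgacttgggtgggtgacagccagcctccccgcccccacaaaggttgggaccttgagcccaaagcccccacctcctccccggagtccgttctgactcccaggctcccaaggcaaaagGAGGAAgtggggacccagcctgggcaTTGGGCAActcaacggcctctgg
The *CTSG* stretch, of 240 bases, held 2 matches to GAGGAA, which began 36 and 6 bases before its end. The *PRTN3* stretch, of 211 bases, held 1 that began 49 bases before its end and 1 match to TTNNGNAA that began 23 bases before it. The *AZU1* stretch, of 249 bases, held 1 match to TTNNGNAA, 110 bases before its end, and 1 to a loose NF-κB motif, 80 bases before it, which is not in capitals. In windows of these 3 lengths from 35116 promoters, GAGGAA was found in 20.02% to 23.4% and TTNNGNAA in 30.3% to 33.2%, and the NF-κB motif was in 22.4% of the 249-base windows, so each of these matches is common. The RUNX motif TGTGGT, found in 10.6% of the 240-base windows, was in none of the 3 stretches. The motifs were chosen after the sequences had been seen. *MPO*, *ELANE*, *BPI*, *LYZ* and *SRGN* had no entry.

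In granulocytes *SRGN* rose clearly with TNF-α and no cargo gene passed the test. The *SRGN* libraries stood at 1453, 1395 and 1311 CPM with vehicle and at 1947, 2091 and 2116 CPM with TNF-α, a log2 fold change of 0.55 (SE 0.0543, edgeR adjusted p = 6.58e-11), or 46.6% more. The lowest TNF-α library was far above the highest vehicle library. Of the 8 members tested 1 was higher and 0 were lower, in a comparison where 24.4% of all genes tested were higher and 24.8% lower, and no member reached an unadjusted p under 0.05 in the lower direction. *ELANE*, with 0 to 3 counts per library, and *RNASE3*, with 1 to 12, were under the expression filter. *SRGN* was the 1 member with groups that did not overlap upward, against 28.4% of all genes tested, and 0 members lay wholly below, against 26.7%.

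For the cargo genes the groups overlapped. *PRTN3* stood at 165, 173 and 195 CPM with vehicle and at 218, 188 and 185 CPM with TNF-α, with overlapping groups (log2 fold change 0.13, edgeR adjusted p = 0.0516). *MPO* stood at 1933, 2007 and 2116 CPM with vehicle and at 2096, 1924 and 1934 CPM with TNF-α (log2 fold change -0.04, standard error 0.0541, edgeR adjusted p = 0.579). *CTSG* had a log2 fold change of -0.14 (adjusted p = 0.154), and *AZU1*, *BPI*, *LYZ* and *RNASE2* had values between -0.06 and 0.05 with adjusted p of 0.407 or more.

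These granulocyte values depended on scaling. Scaled to library totals without TMM, the median of all genes tested moved to -0.13 and the calls over all genes from 4135 higher and 4209 lower to 2810 higher and 6236 lower. In that fit *MPO* (log2 fold change -0.17), *CTSG* (-0.27), *BPI* (-0.17) and *LYZ* (-0.19) were called lower and *AZU1* and *RNASE2* turned to -0.10 and -0.08. The GC trend ran opposite to that in promyelocytes, with a median of -0.08 in the lowest bin and 0.10 in the highest. With it removed, *PRTN3* turned to -0.09 (edgeR adjusted p = 0.141), *MPO* (-0.16, adjusted p = 0.00190) and *CTSG* (-0.22, adjusted p = 0.0140) were called lower, and *SRGN* stayed higher.

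**Figure D4:**
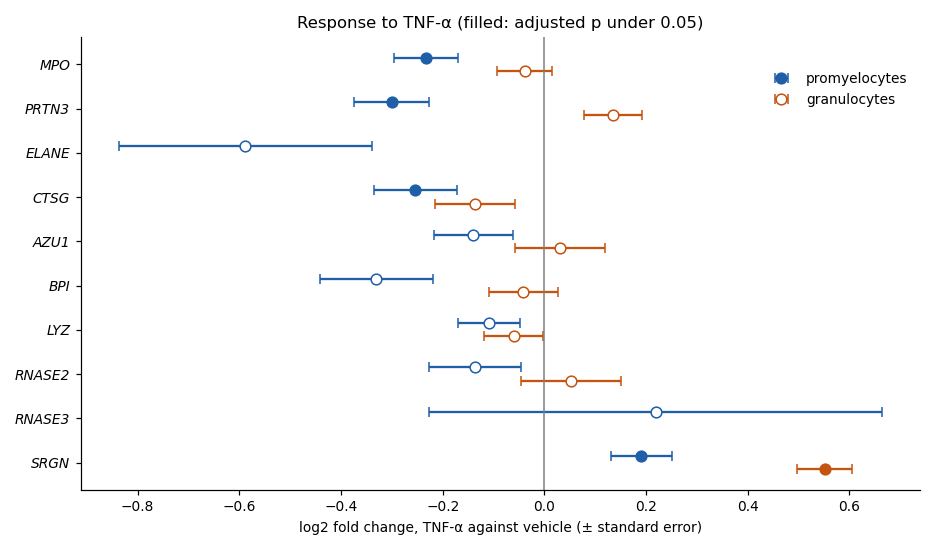
Log2 fold change of TNF-α against vehicle (x axis, ± standard error) for each member in promyelocytes and granulocytes; filled points have an adjusted p under 0.05, and *ELANE* and *RNASE3* were not tested in granulocytes. *PRTN3* lies at -0.30 in promyelocytes and 0.13 in granulocytes, and *SRGN* at 0.19 and 0.55.

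The response to TNF-α differed between the cell types, and so also between their separate experiments, for *SRGN* and *PRTN3*. The difference of responses, granulocytes minus promyelocytes, was 0.40 on the log2 scale for *SRGN* (SE 0.0819, edgeR interaction adjusted p = 0.000594), and 0.47 for *PRTN3* (SE 0.110, edgeR interaction adjusted p = 0.00204). For *SRGN* both responses were positive and the one in granulocytes was larger, while for *PRTN3* a decrease in promyelocytes stood against a granulocyte value that did not pass its own test. *MPO* (0.23, interaction adjusted p = 0.0516) and *BPI* (0.33, interaction adjusted p = 0.0568) were just short of the threshold. Thus 2 of 10 members were called in the positive direction, against 14.1% of all genes tested, and 0 in the negative, against 9.88%. The balance of these calls over all genes, 2561 positive and 1790 negative, became 2128 and 2266 with DESeq2 size factors and 1570 and 3530 with library totals.

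The difference for *SRGN* held in every setting run, and grew to 0.56 with GC and length trends removed. That for *PRTN3* fell to 0.11 in the same fit (edgeR interaction adjusted p = 0.399), and otherwise held, including all 12 fits that left out a library (adjusted p of 0.000122 to 0.0124).

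Together, the 10 members took 0.877% ± 0.0206 of all counted read pairs in vehicle promyelocytes and 0.763% ± 0.0417 with TNF-α (SD, n = 3 libraries), a difference of -0.115 percentage points. In granulocytes the share was 0.392% ± 0.000838 with vehicle and 0.416% ± 0.00712 with TNF-α, a difference of 0.0242. The groups did not overlap in either cell type, and the two-sided exact permutation p was 0.1 in both, the smallest that 3 libraries against 3 can give. The 2 shares moved with different genes. The share of *MPO* fell by 0.101 points in promyelocytes, and in granulocytes that of *SRGN* rose by 0.0494 points while that of *MPO* fell by 0.0235. Among the members, *SRGN* gave 46.9% of read pairs in TNF-α treated granulocytes and *MPO* 45.3%.

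Other proteins of the granule and its lysosomal relatives, a list of 25 genes, rose in granulocytes where most of the 10 members fell. Of 23 tested, 19 were higher and 3 lower in vehicle granulocytes than in vehicle promyelocytes, against 35.7% and 36.3% of all genes tested. Their median log2 fold change was 1.46 (0.01 over all genes tested). The α-defensin gene *DEFA3* stood at 23.3 CPM in vehicle promyelocytes and 937 CPM in vehicle granulocytes, and *CTSD*, the gene of the lysosomal protease cathepsin D, at 31.5 and 624 CPM. Both were picked after their values were seen, and the near-identical copies *DEFA1*, *DEFA1B* and *DEFA3* share reads, so the split between them is uncertain. With TNF-α 2 of the 23 were higher and 0 lower in promyelocytes, against 8.15% and 6.65% of all genes tested. In granulocytes 9 were higher and 5 lower, against 24.4% and 24.8%.

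*ARSB*, the gene of the lysosomal enzyme arylsulfatase B, which removes sulfate from chondroitin and dermatan sulfate, rose in both cell types. It went from 31.7 ± 1.11 to 50.8 ± 3.46 CPM in promyelocytes and from 40.8 ± 2.44 to 119 ± 4.17 CPM in granulocytes (SD, n = 3 libraries), log2 fold changes of 0.71 and 1.53. *LAMP2*, a lysosomal membrane protein, was the other one higher in promyelocytes (0.22). For genes of this and the following lists, values with GC and length trends removed are not given here. Small changes such as this one may depend on those trends. In granulocytes the lysosomal mannosidase gene *MAN2B1* rose by 0.63 and the tetraspanin gene *CD63*, whose protein lies in the azurophil granule membrane, by 0.29, while the fucosidase gene *FUCA1* fell by 0.29.

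Genes that activate, sort or inhibit the granule proteases formed a list of 17 with 12 tested, of which 2 were higher and 1 lower with TNF-α in each cell type. Over all genes tested 8.15% were higher and 6.65% lower in promyelocytes, and 24.4% and 24.8% in granulocytes. In promyelocytes *LYST*, which is needed for normal granule size, rose from 376 ± 8.71 to 526 ± 16.9 CPM (log2 fold change 0.51, edgeR adjusted p = 1.32e-06), *SERPINA1*, encoding the plasma inhibitor of elastase, rose from 1.40 to 2.69 CPM, and *CST7*, whose product inhibits the protease-activating enzyme cathepsin C, fell by 0.20. In granulocytes *SERPINB1*, encoding an intracellular inhibitor of elastase, proteinase 3 and cathepsin G, rose from 266 ± 2.63 to 318 ± 7.56 CPM (log2 fold change 0.24, edgeR adjusted p = 5.49e-05). *SERPINB8* rose by 0.43, and *RAB27A*, which docks granules at the plasma membrane, fell by 0.58. The cathepsin C gene *CTSC* itself did not pass the test in either cell type.

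Serglycin carries chondroitin sulfate chains, and genes that build them formed a list of 16. In promyelocytes 2 were higher and 4 lower of 13 tested with TNF-α, against 8.15% and 6.65% of all genes, with a median of -0.04 (-0.01 over all genes). In granulocytes 3 were higher and 7 lower of 14, against 24.4% and 24.8% of all genes, with a median of -0.22 (-0.0047 over all genes). *XYLT1*, whose enzyme adds the first sugar of the chain, fell from 147 ± 2.94 to 110 ± 9.66 CPM in promyelocytes and from 145 ± 7.32 to 77.2 ± 5.33 CPM in granulocytes (log2 fold changes -0.40 and -0.92). The chondroitin 4-sulfotransferase genes moved apart. *CHST12* fell by 0.62 and 0.91, and *CHST11* rose by 0.38 and 0.30. *CSGALNACT2*, which starts the chondroitin repeat, rose by 0.23 and 0.32, *XYLT2* fell by 0.29 in promyelocytes, and in granulocytes *CHPF* fell by 0.76 and *B3GALT6* rose by 0.70.

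Myeloperoxidase needs heme and folds with the help of calreticulin and calnexin. In the list of 13 heme and folding genes, *ALAS1*, the rate-limiting enzyme gene of heme synthesis, rose from 51.7 ± 1.76 to 127 ± 4.53 CPM in promyelocytes (log2 fold change 1.32, edgeR adjusted p = 1.34e-12) and from 91.1 ± 3.58 to 307 ± 12.9 CPM in granulocytes (1.74, adjusted p = 1.78e-26). The next enzyme gene, *ALAD*, fell by 0.23 and 0.57. In granulocytes the chaperone gene *HSPA5* fell by 0.49 and *PDIA3* rose by 0.21. In all, 1 gene was higher and 1 lower in promyelocytes, against 8.15% and 6.65% of all genes tested. In granulocytes 2 were higher and 4 lower, against 24.4% and 24.8%. Between vehicle groups 8 of the 13 were lower and 3 higher in granulocytes, against 36.3% and 35.7% of all genes tested, with a median of -0.68.

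Transcription factors known to act on granule genes formed a list of 12, all of them tested. In promyelocytes 3 were higher and 5 lower, against 8.15% and 6.65% of all genes, with a median of -0.32. *CEBPA*, encoding a C/EBP factor that drives granulocyte commitment, fell from 425 ± 39.0 to 270 ± 11.8 CPM (log2 fold change -0.63, edgeR adjusted p = 3.27e-07), *RUNX1* fell by 0.56 and *MYB* by 0.46, while *SPI1*, the gene of PU.1, rose by 0.25, *ETV6* by 0.32 and *IRF8* by 0.75. In granulocytes 5 were higher and 6 lower, against 24.4% and 24.8% of all genes. *GFI1*, a repressor needed for neutrophil maturation, fell from 235 ± 3.07 to 51.4 ± 1.01 CPM (log2 fold change -2.21, edgeR adjusted p = 6.97e-30), *MYB* fell by 1.65 and *CEBPE* by 1.22. *IRF8*, a driver of monocyte fate, rose from 0.330 ± 0.123 to 10.3 ± 1.12 CPM, *SPI1* from 217 ± 14.1 to 422 ± 36.9 CPM, and *ETV6* by 0.23 on the log2 scale. Between vehicle groups 5 of the 12 were higher and 4 lower in granulocytes, against 35.7% and 36.3% of all genes, with a median of -0.01. *CEBPA* was lower there, at 87.5 against 425 CPM.

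**Figure D5:**
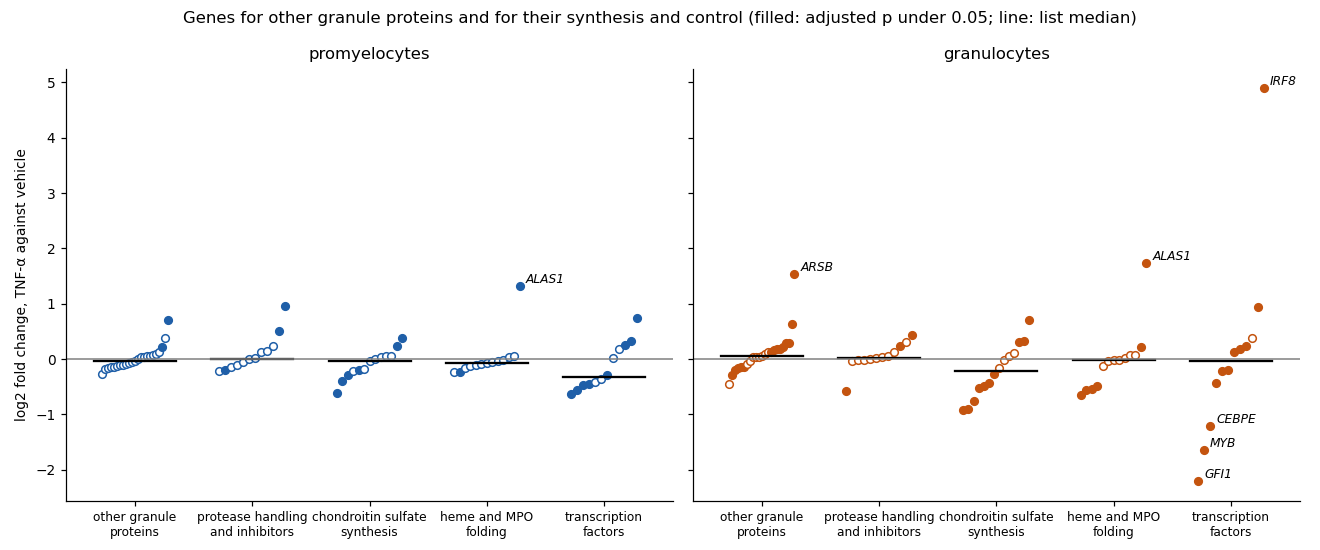
Log2 fold change of TNF-α against vehicle (y axis) for each gene tested in 5 lists of genes around the azurophil granule proteins, in promyelocytes and granulocytes; filled points have an adjusted p under 0.05, and black lines give list medians. *ALAS1* stands above its list in both panels, at 1.32 and 1.74, and *IRF8* (4.90) and *GFI1* (-2.21) mark the range of the transcription factors in granulocytes.

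Around the chromosome 19 cluster, 6 of 10 neighbouring genes in the table were tested in promyelocytes. With TNF-α 2 of them were lower and 0 higher, against 6.65% and 8.15% of all genes tested. The 2 lower genes were *PLPPR3*, next to *AZU1* (log2 fold change -0.47, edgeR adjusted p = 0.00766), and *CFD*, the gene of the serine protease complement factor D, next to *ELANE* (-0.34, adjusted p = 0.0425). Their values with GC and length trends removed are not given here. In granulocytes *PLPPR3* had a log2 fold change of 0.01 and *CFD* of 0.15, and neither passed the test.

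Over the 12 libraries, the genes closest in pattern to a member were found by the root mean square difference of centred log2 CPM among 9634 genes. *LRP5* (0.0621), *NOL6* (0.0633) and *GOT2* (0.0678) were closest to *MPO*, *SRM* (0.108), *CD320* (0.121) and *POLD2* (0.132) to *PRTN3*, *ACOT9* (0.0569), *KLHL28* (0.0898) and *ERBIN* (0.0918) to *SRGN*, and *GMDS-DT* (0.0793), *SOX4* (0.110) and *GRN* (0.116) to *BPI*. No other member was among the 3 closest genes of any of the 10. *ELANE* and *RNASE3* could not be, since their levels were under the minimum for the genes compared.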

How the data were processed

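Total RNA depleted of ribosomal RNA was sequenced as paired ends in 12 libraries, from triplicate flasks of 1 cell line, so p-values measure the spread between flasks. The authors aligned reads to hg38 with STAR 2.5.3a and counted read pairs per GENCODE gene with featureCounts 1.5.2 (reverse strand, primary alignments, both ends mapped, no chimeric pairs), and they deposited raw counts without normalization. Symbols came from the reference annotation for 57532 of 58288 gene IDs, and 0 columns were left unassigned. Members, lists and tests were chosen with earlier results of these data known.

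TNF-α was compared with vehicle separately per cell type, with edgeR 4.0.16 under R 4.3.3 (TMM, filterByExpr with a minimum count of 10 and total of 15, quasi-likelihood test, Benjamini-Hochberg adjustment over all genes tested, threshold 0.05, 16250 and 16944 genes). Differences of responses and of levels used 1 fit of all 12 libraries (18124 genes). CPM values are on the TMM scale of the 12 libraries, so their ratios can differ slightly from the fitted fold changes, which use a prior count of 0.125. GC content and length were those of the exons. Named context genes were the up to 3 genes with the smallest adjusted p per list, direction and cell type, some of which are not reported here, and likeness used a pseudocount of 0.5 CPM and genes with a log2 mean CPM of at least 3. Alternatives were DESeq2 1.42.0, its size factors, library totals, no filter, a replicate block, thinned counts, GC and length offsets, a threshold of 0.01, all libraries in 1 fit and leaving out each library. On simulated counts with 100 genes changed by 0.5 and 100 by 1 (log2), 73 and 99 were recovered in promyelocytes (11 false of 183 calls) and 81 and 98 in granulocytes (6 false of 185). Every simulated gene had a biological coefficient of variation (relative spread between libraries) of 0.05, without a GC trend. The fitted common values were 0.0673 in promyelocytes and 0.0487 in granulocytes, so recovery in promyelocytes may be overstated. Depth was 22829189 to 31895061 read pairs, and floors of 3 counts cover counting error only. Python 3.11.15, Biopython 1.88 and matplotlib 3.10.9 were also used.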

Additional observations from a re-analysis of the deposited data

Results flagged for a closer look

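The response of *SRGN* to TNF-α differed between granulocytes and promyelocytes by 0.40 on the log2 scale (edgeR interaction adjusted p = 0.000594), with 3 of 3 TNF-α libraries above all vehicle libraries in each cell type. The response of *PRTN3* differed by 0.47 (edgeR interaction adjusted p = 0.00204), with 3 of 3 TNF-α libraries below all vehicle libraries in promyelocytes and overlapping groups in granulocytes. With GC and length trends removed, the difference was 0.56 for *SRGN* and 0.11 for *PRTN3* (adjusted p = 0.399). Cell type and experiment cannot be told apart in these differences.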

How the results depend on the processing

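The differences in level between vehicle groups kept direction and call in every alternative run, as did the granulocyte increase of *SRGN*. The level fit with GC and length trends removed moved the median of all genes to -0.10. In promyelocytes the count of members called higher was 0 with the replicate block, with GC and length trends removed, at the threshold of 0.01 and in the fit of all 12 libraries, and 0 to 1 with a library left out. The count called lower was 1 at 0.01 and 1 to 3 with a library left out. In granulocytes 2 members were called higher with DESeq2 size factors and 1 to 2 with a library left out, and 4 were called lower with library totals and 2 with GC and length trends removed. Signs turned in granulocytes for *PRTN3* (-0.090), *AZU1* (-0.16) and *LYZ* (0.011) with GC and length trends removed, and for *AZU1* (-0.10) and *RNASE2* (-0.078) with library totals, all values that passed no test. In the difference of responses they turned for *AZU1* (-0.072, GC and length) and *LYZ* (-0.068, library totals). With a library left out, ranges crossing 0 were -0.022 to 0.37 for *RNASE3* in promyelocytes, -0.062 to 0.092 for *AZU1* and -0.14 to 0.019 for *BPI* in granulocytes, and -1.56 to 0.23 for the difference of responses of *RNASE3*. Among single-member values under the remaining alternatives, 300 kept direction and call, 11 gained a call, 9 lost one and 7 turned. The causes were not tested.

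Same-numbered libraries did not deviate together, with residual correlations from -0.148 to 0.0109, so the values gave no sign of pairing by number. Whether flasks were handled in pairs cannot be told from these correlations. With the replicate block, adjusted p in promyelocytes was 0.148 for *SRGN* and 0.0874 for *MPO*, and the calls over all genes there were 1012 higher and 821 lower. At the threshold of 0.01 the calls over all genes went from 1324 higher and 1081 lower to 864 and 574 in promyelocytes, and from 2561 and 1790 to 1732 and 1111 for the difference of responses. Leaving out promyelocyte vehicle replicate 2 gave 945 and 653, and TNF-α replicate 2 gave 1035 and 667. Depth limits *ELANE* in granulocytes and *RNASE3* throughout, and 3 libraries per group limit the rest.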

Other observations

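*SERPINB9* and *SERPINB6*, whose products inhibit serine proteases of granules, had 3 counts or fewer in every library, while *SERPINB1*, of the same gene cluster on chromosome 6, stood at 35.9 CPM in vehicle promyelocytes and 266 CPM in vehicle granulocytes. Among eosinophil markers, *PRG2*, the gene of major basic protein, stood at 22.0 CPM in vehicle promyelocytes and 0.430 CPM in vehicle granulocytes, while *CCR3* stood at 0.246 and 54.2 CPM and *CLC* at 13.6 and 76.7 CPM. These genes were chosen after their values were seen.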
